A study of Arabidopsis thaliana with 12 samples.

Results

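The 48 genes described here are the neighbours of the marneral gene cluster on chromosome 5 of Arabidopsis thaliana. They were chosen by identifier, with earlier results of these data known. They include every gene numbered from AT5G42390 to AT5G42790, leaving out 3 marneral genes (CYP705A12, CYP71A16 and MRN1) and AOS, a jasmonate synthesis gene. They are 48 of the 69383 features in the deposited tables, of which 37898 were nuclear genes. In the TAIR10.1 annotation they lie at chr5:16945165-17161156, a stretch of 216.0 kb. There are 24 on each side of the marneral genes, 29 on the plus strand and 19 on the minus strand, and 41 are protein-coding. RNA of whole seedlings 12 days old was sequenced in 4 groups with 3 libraries each, named A, B and C. The groups were RNAi-MARS seedlings collected 4 h after a spray with 10 µM abscisic acid (ABA), RNAi-MARS seedlings before the spray, and wild-type Col-0 seedlings after and before it. RNAi-MARS carries a construct that silences MARS by RNA interference, MARS being a long non-coding RNA gene inside the marneral cluster; the promoter of the construct and the number of independent lines are not given in the sources used here. Unsprayed seedlings were not sampled at 4 h, so ABA, the act of spraying and the time of day cannot be told apart. Whether the 3 libraries of a group are separate cultures is not in the labels, and p-values then measure only how far these samples differ, which may be technical.

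Marneral is a triterpene, and the genes that make it stand side by side, as plants often arrange the genes of a specialised pathway. The genes of such a cluster tend to be expressed together, while the genes around it are ordinary genes of many functions. MARS lies between CYP71A16 and MRN1, and the series asks what lowering it does to the response to ABA. The neighbours allow the lines and the times to be compared along the chromosome on either side of the cluster. ABA is the hormone with which plants answer drought and salt, and it changes the expression of many genes across the genome within hours.

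Library totals were between 19020202 and 38787804 counts, of which the 48 neighbours held between 18240 and 42668. Levels are CPM, counts divided by the library size scaled with TMM factors, and values per library stand in the order A, B and C. The construct's target was checked before the neighbours. MARS stood at 2.3, 1.34 and 4.11 CPM in RNAi-MARS after ABA, against 21.3, 9.09 and 20.1 CPM in Col-0 after ABA. It stood at 0.196, 0.156 and 0.167 CPM in RNAi-MARS before ABA, against 6.63, 2.6 and 0.344 CPM in Col-0 before ABA. Every RNAi-MARS library was thus below every Col-0 library of the same time, although edgeR called neither difference (adjusted p = 0.477 after and 0.996 before ABA). Markers of both organs were present, as whole seedlings imply. The 8 shoot markers summed to between 24488 and 48144 CPM and the 18 root markers to between 1930 and 2786 CPM. Most of the root sum was PYK10 alone, at 1896 to 2700 CPM. The other root markers were low, with ESB1 the highest of them at up to 24.2 CPM. IRT1, a root iron transporter, was at 0 in 2 libraries.

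Of the 48 neighbours, 35 passed the filter on low counts and were tested, 16 before MARS and 19 after it. Another 8 had no count in any library (AT5G42430, AT5G42490, AT5G42504, AT5G42505, AT5G42567, AT5G42565, AT5G42568 and AT5G42635), where the floor of 3 counts allows a level of up to 0.0691 to 0.156 CPM, depending on the library and for counting error only. The remaining 5 held between 0.5 and 71 counts over all libraries. They were AT5G42410, AT5G42610, AT5G42640, AT5G42645 and AT5G42677. The silent and the active genes were mixed along the chromosome. Per kb of exon, the highest mean level over all libraries was that of AT5G42530, an uncharacterized protein, at 104 CPM per kb. Next came PAF1, an alpha subunit of the 20S proteasome core, at 71.9 CPM per kb, and SPP, the peptidase that cuts transit peptides off proteins entering the chloroplast, at 42.3 CPM per kb. BPC6, a DNA-binding factor of the BASIC PENTACYSTEINE family, followed at 31.3 CPM per kb, and AT5G42765 and AT5G42740 at 30.2 and 30 CPM per kb. On the same scale the cluster genes were lower, at 8.12 for MRN1, 7.19 for CYP71A16, 6.5 for CYP705A12 and 2.93 for MARS, and AOS stood at 110. The lowest tested neighbour was AT5G42655, a dirigent-like gene, at 0.499 CPM per kb. The tested neighbours left a gap of 43473 bp around the marneral genes, between AT5G42570 and AT5G42620, and one of 26122 bp around AOS, between ATS and AT5G42655.

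**Figure D1:**
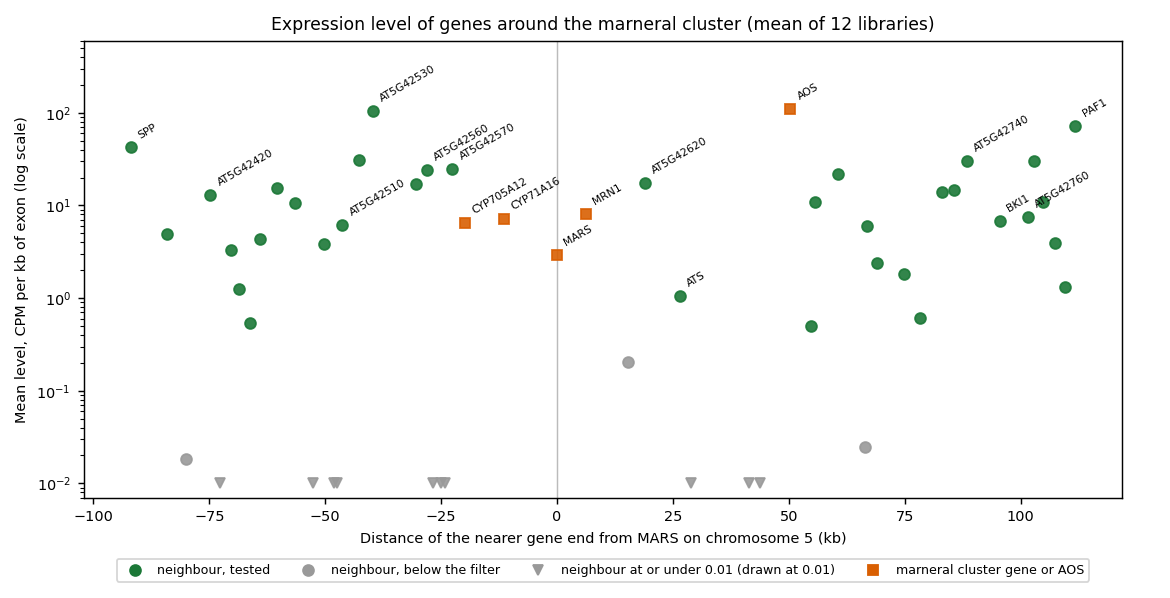
Mean level over all 12 libraries, in CPM per kb of exon on a log scale, against the distance of the nearer gene end from MARS in kb. Circles are neighbours (green tested, grey below the filter), triangles are neighbours at or under 0.01 drawn at 0.01, and squares are the marneral cluster genes and AOS; AT5G42530 and AOS stand highest, at 104 and 110 CPM per kb, and the cluster genes lie in the middle of the neighbours' range.

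No neighbour was called between RNAi-MARS and Col-0. After ABA, 0 of the 35 tested neighbours were called at an adjusted p under 0.05 (edgeR), against 0.089% of all tested features. Before ABA the count was again 0 of 35, against 0.089% of all tested features. The log2 differences had a median of 0.04 after ABA and ran between -0.37 and 0.50. Before ABA the median was 0.00 and the range -0.91 to 0.73, with 18 above and 17 below 0. At an unadjusted p under 0.05 there were 3 neighbours after ABA (8.57%, against 8.82% of all features) and 2 before it (5.71%, against 4.33%). The libraries of both lines did not overlap for 6 neighbours after ABA (17.1%, against 11.8% of all features) and for 7 before it (20%, against 11.3%). The 95% interval of the log2 difference lay within -1 and 1 for 27 of the 35 at each time. It reached further for 8 genes at both times, which were AT5G42445, AT5G42500, AT5G42510, AT5G42530, ATS, AT5G42655, AT5G42760 and AT5G42785. For these 8 a 2-fold difference between the lines was not excluded by the interval at this depth and spread. DESeq2 and limma-voom also called 0 neighbours at either time.

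**Figure D2:**
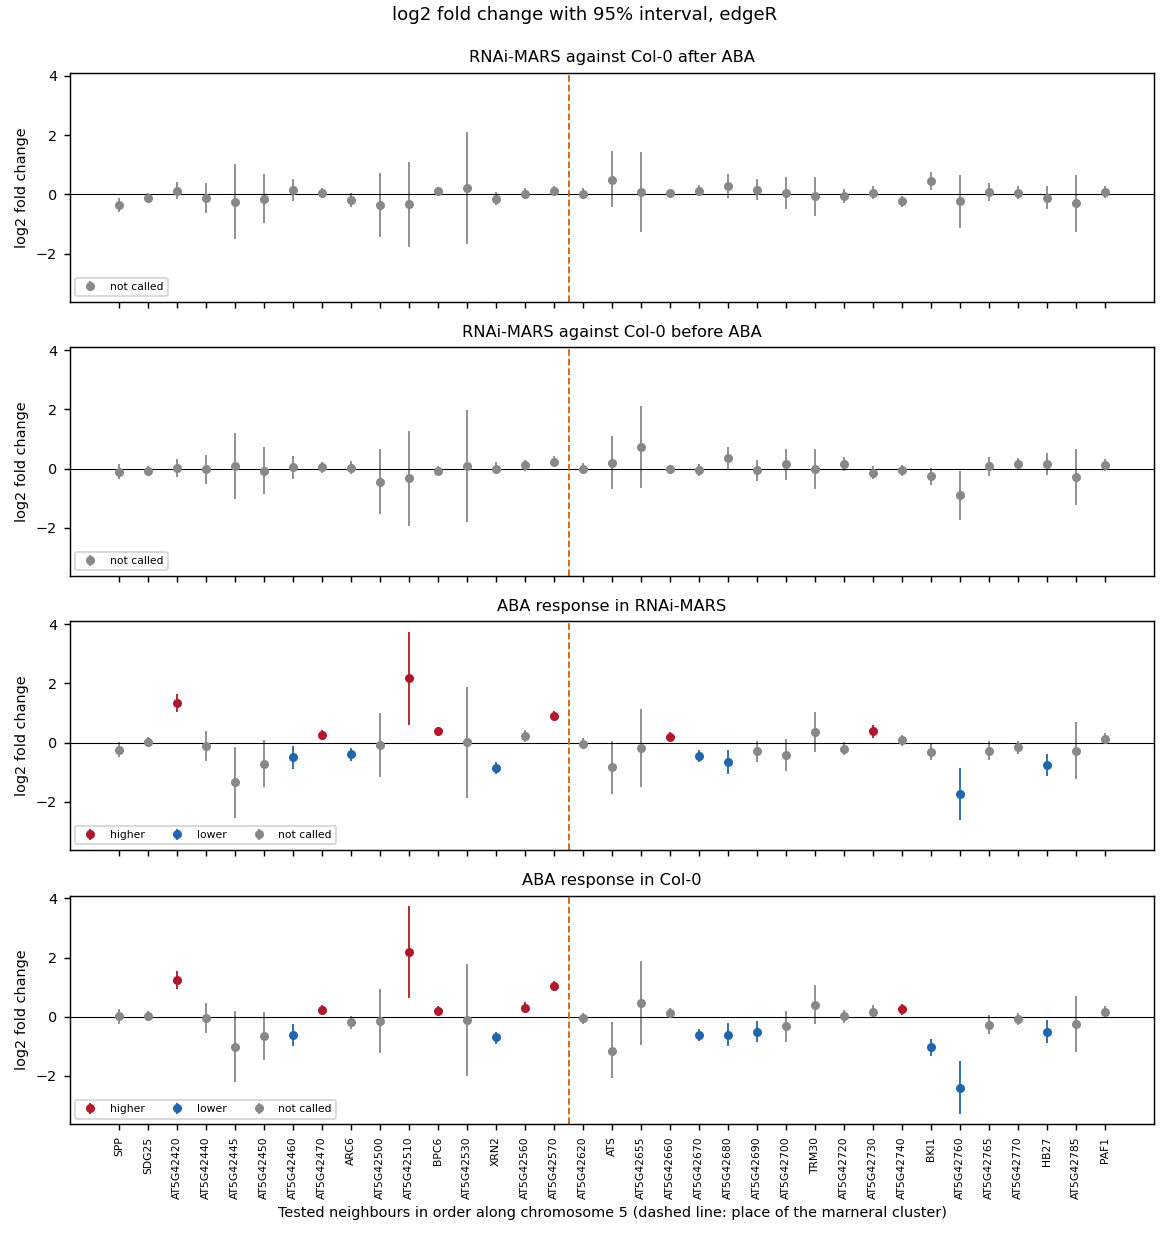
log2 fold change (y axis) of the 35 tested neighbours in their order along chromosome 5 (x axis), from edgeR; bars are 95% intervals, and the dashed line marks the place of the marneral cluster. The upper panels compare RNAi-MARS with Col-0 after and before ABA, where no neighbour was called, and the lower panels show the ABA response in RNAi-MARS (14 called) and in Col-0 (15 called).

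The genes that stand nearest to the cluster were followed in every library. AT5G42570, the last tested gene before CYP705A12, encodes a protein like the animal endoplasmic reticulum protein BAP31. It stood at 35.7, 39.9 and 37.8 CPM in RNAi-MARS after ABA and 21.0, 20.7 and 19.0 CPM in RNAi-MARS before it, and at 34.1, 34.8 and 36.7 CPM in Col-0 after ABA and 16.6, 18.8 and 16.1 CPM in Col-0 before it. All libraries at 4 h were higher than all at 0 h, and before ABA the RNAi-MARS libraries lay just above those of Col-0. The log2 difference between the lines was 0.10 ± 0.08 (SE) after ABA (edgeR, adjusted p = 0.72), and 0.23 ± 0.08 before it, with an unadjusted p of 0.0151 and an adjusted p of 0.996. Its neighbour AT5G42560 belongs to the HVA22 family, named after an ABA-induced barley gene. It stood at 38.5, 39.5 and 44.3 CPM in RNAi-MARS after ABA and 33.4, 36.9 and 35.1 CPM before it, and at 37.6, 42.0 and 41.0 CPM in Col-0 after ABA and 29.9, 32.0 and 35.6 CPM before it. The lines overlapped at both times, with log2 differences of 0.02 ± 0.09 after ABA and 0.11 ± 0.09 before it.

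On the other side of the cluster stood AT5G42620, annotated as a metalloendopeptidase. It held 62.5, 62.6 and 64.6 CPM in RNAi-MARS after ABA and 61.9, 64.4 and 66.8 CPM before it, and 68.5, 63.0 and 56.6 CPM in Col-0 after ABA and 63.5, 60.7 and 70 CPM before it. All groups overlapped, and none of its log2 differences in these comparisons was further from 0 than -0.05 ± 0.08. The next tested gene was ATS, also called KANADI 4, a transcription factor of the ovule integuments and the seed coat. It was low, at 1.10, 2.30 and 0.580 CPM in RNAi-MARS after ABA and 2.94, 2.02 and 2.34 CPM before it, against 1.00, 1.14 and 0.752 CPM in Col-0 after ABA and 1.89, 2.91 and 1.56 CPM before it. The lines overlapped at both times. In Col-0 every library after ABA was below every library before it, but the log2 difference of -1.14 ± 0.43 was not called (edgeR, adjusted p = 0.0549); it was called when the compared groups were fitted alone, with the replicate block, in DESeq2, and without RNAi-MARS after ABA library B or C. In RNAi-MARS the change of -0.83 ± 0.41 was called only with the replicate block and without RNAi-MARS after ABA library B.

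Among the other neighbours, SPP, BKI1 and AT5G42740 came nearest to a difference between the lines after ABA. SPP stood at 155, 165 and 198 CPM in RNAi-MARS after ABA and 197, 197 and 218 CPM before it, against 237, 220 and 207 CPM in Col-0 after ABA and 234, 198 and 229 CPM before it. After ABA all RNAi-MARS libraries were below all Col-0 libraries, by -0.36 ± 0.11 on the log2 scale (edgeR, unadjusted p = 0.00803, adjusted p = 0.477). AT5G42740 encodes a sugar isomerase that interconverts glucose and fructose phosphates. It stood at 73.3, 76.7 and 89.4 CPM in RNAi-MARS after ABA and 75.1, 77.9 and 73.3 CPM before it, against 95.2, 90.8 and 94.2 CPM in Col-0 after ABA and 77.9, 78.3 and 79.5 CPM before it. The lines did not overlap after ABA, where the log2 difference was -0.23 ± 0.08 (edgeR, unadjusted p = 0.0166, adjusted p = 0.494). BKI1 encodes an inhibitor that binds the brassinosteroid receptor BRI1. It stood at 10.8, 9.60 and 13.4 CPM in RNAi-MARS after ABA and 14.4, 13.0 and 14.5 CPM before it, against 7.67, 7.79 and 9.16 CPM in Col-0 after ABA and 18.2, 15.2 and 16.9 CPM before it. RNAi-MARS was thus above Col-0 in every library after ABA and below it in every library before ABA. The log2 differences were 0.45 ± 0.13 after ABA (edgeR, unadjusted p = 0.00549, adjusted p = 0.477) and -0.26 ± 0.13 before it (adjusted p = 0.996). PAF1, the remaining neighbour of the highest levels in CPM, stood at 94.6, 93.6 and 101 CPM in RNAi-MARS after ABA and 86.0, 93.6 and 85.5 CPM before it, against 81.4, 93.4 and 99.5 CPM in Col-0 after ABA and 79.2, 79.9 and 85.0 CPM before it. The lines overlapped after ABA and not before it, with log2 differences of 0.08 ± 0.09 after and 0.12 ± 0.09 before ABA, neither called.

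The ABA comparison did change many neighbours, at a rate close to that of the whole table. In RNAi-MARS 14 of the 35 were called (40%, against 42.6% of all tested features), 7 higher and 7 lower, beside 21.6% and 21% of all features in these directions. In Col-0 15 of the 35 were called (42.9%, against 40% of all tested features), 7 higher and 8 lower, beside 20.7% and 19.3% of all features. The libraries of both times did not overlap for 17 neighbours in RNAi-MARS (48.6%, against 52.4% of all features) and for 23 in Col-0 (65.7%, against 52.9%). At least a 2-fold change among those called was seen for 3 neighbours in RNAi-MARS (8.57%, against 13% of all features) and for 5 in Col-0 (14.3%, against 11.8%). The median log2 change was -0.19 in RNAi-MARS and -0.07 in Col-0, with -0.02 and -0.00 over all features. In the 100 kb on the left of the window 31.6% of 19 tested genes were called in RNAi-MARS and 36.8% in Col-0, and in the 100 kb on the right 43.5% and 47.8% of 23. The count in Col-0 fell to 9 without Col-0 before ABA library A, to 8 without library B of that group, and to 9 without Col-0 after ABA library B or C. The share of all features called fell in the same settings, to 33.6%, 33.9%, 33.7% and 34%, beside 25.7%, 22.9%, 25.7% and 25.7% of the neighbours. In whole-seedling RNA a change in the number of cells that express a gene and a change of its RNA per cell cannot be told apart. The shoot marker score, the mean log2 level of the shoot markers relative to its mean over all libraries, ran between -0.456 and -0.005 in RNAi-MARS after ABA and between 0.196 and 0.243 before it, and between -0.247 and -0.08 in Col-0 after ABA and 0.09 and 0.383 before it. It was lower in every library at 4 h than in any at 0 h, with 3 of 8 markers called lower in each line, and its part in the ABA changes was not tested. The root marker score overlapped between the times in both lines, with 0 of 17 tested root markers called higher and 2 called lower in each.

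Of the neighbours called for ABA, 11 were called in both lines, which is 78.6% of the calls in RNAi-MARS and 73.3% of those in Col-0, and 0 neighbours were called in opposite directions. Over all tested features the shared calls in 1 direction were 75.4% of those in RNAi-MARS and 80.3% of those in Col-0, so the neighbours' overlap was near that of the table. Of the 11, 5 were higher after ABA and 6 lower. AT5G42420, which encodes URGT3, a carrier of UDP-rhamnose and UDP-galactose into the Golgi, rose in both lines. It stood at 30.4, 28.6 and 29.8 CPM in RNAi-MARS after ABA and 11.9, 11.2 and 11.9 CPM before it, and at 26.6, 23.9 and 30.7 CPM in Col-0 after ABA and 10.5, 14.3 and 9.57 CPM before it. All libraries at 4 h were above all at 0 h. The log2 change was 1.34 ± 0.14 in RNAi-MARS and 1.24 ± 0.14 in Col-0 (edgeR, adjusted p = 2.32e-05 and 4.77e-05). AT5G42570, with the values given above, rose by 0.90 ± 0.08 in RNAi-MARS and 1.03 ± 0.08 in Col-0 on the log2 scale (edgeR, adjusted p = 9.03e-06 and 4.29e-06). The calls of both genes in both lines held in all 21 alternatives.

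AT5G42510 encodes a dirigent-like protein. Dirigent proteins steer the coupling of phenoxy radicals in the synthesis of lignans and of the lignin of the root barrier. It stood at 6.69, 6.99 and 11.7 CPM in RNAi-MARS after ABA and 3.54, 0.752 and 1.29 CPM before it, and at 16.1, 6.10 and 9.45 CPM in Col-0 after ABA and 3.91, 2.75 and 0.5 CPM before it. The times did not overlap in either line, while the libraries of a group differed among themselves by up to several-fold. The log2 change was 2.18 ± 0.70 in RNAi-MARS and 2.19 ± 0.70 in Col-0, called in both (edgeR, adjusted p = 0.0296 and 0.0295). The call was lost with no filter on low counts in both lines (adjusted p = 0.0615 and 0.0621) and without several single libraries, which were RNAi-MARS before ABA B or C, RNAi-MARS after ABA C, Col-0 before ABA B or C and Col-0 after ABA A. In Col-0 it was also lost when the compared groups were fitted alone (adjusted p = 0.0657). Reads were divided between AT5G42510 and AT5G42500, a second dirigent-like gene beside it on the same strand, whose own log2 change was -0.08 ± 0.49 in RNAi-MARS and -0.15 ± 0.49 in Col-0. The counts of the pair are therefore uncertain. Summed, the pair stood at 8.49, 11.1 and 14.9 CPM in RNAi-MARS after ABA and 7.79, 3.27 and 4.23 CPM before it, and at 21.7, 8.57 and 13.1 CPM in Col-0 after ABA and 10.6, 7.76 and 2.06 CPM before it. The sum changed by 1.16 ± 0.56 in RNAi-MARS and 1.11 ± 0.55 in Col-0 and was not called (edgeR, adjusted p = 0.117 and 0.136).

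Among the 6 that fell in both lines, AT5G42760 changed most. It is annotated as a leucine carboxyl methyltransferase. It stood at 6.5, 3.29 and 1.98 CPM in RNAi-MARS after ABA and 16.9, 10.1 and 12.3 CPM before it, and at 6.01, 3.06 and 4.87 CPM in Col-0 after ABA and 32.1, 21.0 and 20.9 CPM before it. All libraries at 4 h were below all at 0 h, and before ABA all RNAi-MARS libraries were below all Col-0 libraries. The log2 change after ABA was -1.73 ± 0.40 in RNAi-MARS and -2.39 ± 0.40 in Col-0 (edgeR, adjusted p = 0.00539 and 0.000962). Between the lines it was -0.91 ± 0.37 before ABA (unadjusted p = 0.0347, adjusted p = 0.996). The 3′ part of AT5G42760 overlaps AT5G42765 on the other strand by 214 bp, and a further gene, AT5G06385, also overlaps it, so without the strand setting of the counting, which is not given in the sources used here, its counts are uncertain. AT5G42765, with 33.0, 21.1 and 30.3 CPM in RNAi-MARS after ABA and 31.8, 33.8 and 35.5 CPM before it, and 26.2, 24.9 and 28.7 CPM in Col-0 after ABA and 31.4, 29.2 and 35.7 CPM before it, changed by -0.27 ± 0.14 in RNAi-MARS and -0.27 ± 0.15 in Col-0 and was not called (edgeR, adjusted p = 0.162 and 0.16).

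XRN2, a nuclear exoribonuclease that degrades RNA from the 5′ end, fell in both lines and was chosen for its values after they were seen. It stood at 38.7, 45.4 and 42.5 CPM in RNAi-MARS after ABA and 71.5, 77.7 and 78.8 CPM before it, and at 46.6, 50 and 43.0 CPM in Col-0 after ABA and 70.4, 73.0 and 84.0 CPM before it. No library at 4 h reached the lowest at 0 h. The log2 change was -0.85 ± 0.09 in RNAi-MARS and -0.70 ± 0.09 in Col-0 (edgeR, adjusted p = 3.82e-05 and 0.000163). XRN2 ends where AT5G42560 begins, with 0 bp between them on the same strand, and AT5G42560 changed by 0.21 ± 0.09 in RNAi-MARS (not called, adjusted p = 0.0685) and by 0.30 ± 0.09 in Col-0 (called higher, adjusted p = 0.0166). That call in Col-0 was lost without Col-0 before ABA library A or B and without Col-0 after ABA library B, with an adjusted p of up to 0.0685. In RNAi-MARS it was called with the replicate block and without Col-0 after ABA library A.

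The other 6 neighbours called in both lines changed by less than 2-fold. AT5G42470, a BRE-like subunit of the BRCA1-A complex, which in mammals acts in DNA repair, was higher by 0.26 in RNAi-MARS and 0.24 in Col-0, and BPC6 by 0.39 and 0.21. AT5G42460, an F-box protein, was lower by -0.50 in RNAi-MARS and -0.62 in Col-0. AT5G42670, an Agenet domain protein, was lower by -0.45 and -0.63, and AT5G42680, a protein like MIZU-KUSSEI, by -0.66 and -0.60. HB27, a zinc finger homeodomain protein, was lower by -0.77 in RNAi-MARS and -0.50 in Col-0. All of these are log2 changes called by edgeR, with adjusted p between 0.00103 and 0.0343 in RNAi-MARS and between 0.000272 and 0.0388 in Col-0. Several of these calls were lost when 1 library was left out, most of them for more than 1 choice of library. Fewer of all features were called then too. Without 1 library of the line they were 33.2% to 39.7% in RNAi-MARS, beside 42.6%, and 31.1% to 34.2% in Col-0, beside 40%. In RNAi-MARS the call was lost without before-ABA library B or C or after-ABA library A or B for AT5G42460, without before-ABA A or C or after-ABA C for AT5G42470, and without before-ABA B or after-ABA B for AT5G42680. In Col-0 it was lost without library C of either time for AT5G42460, without before-ABA A or B or after-ABA A, B or C for AT5G42470, without before-ABA A or B or after-ABA B or C for BPC6, without before-ABA B or C or after-ABA B for AT5G42680, and without before-ABA A or C, after-ABA B or C or RNAi-MARS before ABA B for HB27. The HB27 call in Col-0 was also lost with the replicate block (adjusted p = 0.0584) and with no filter on low counts (adjusted p = 0.0665). The BPC6 call in Col-0 was also lost when the compared groups were fitted alone (adjusted p = 0.0581), and the AT5G42460 call in RNAi-MARS in that fit and with no filter (adjusted p = 0.0527 and 0.0503). In RNAi-MARS 9 of the 14 calls held in all 21 alternatives, and in Col-0 6 of the 15. In Col-0 those 6 were AT5G42420, XRN2, AT5G42570, AT5G42670, BKI1 and AT5G42760.

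Called in RNAi-MARS alone were ARC6, a chloroplast envelope protein that positions the plastid division ring, at -0.40 ± 0.10 (edgeR, adjusted p = 0.00913), AT5G42660 at 0.20 ± 0.07 and AT5G42730, a transcribed pseudogene, at 0.38 ± 0.10. Their changes in Col-0 had the same sign, at -0.19 ± 0.10, 0.13 ± 0.07 and 0.17 ± 0.10. Called in Col-0 alone were AT5G42560, AT5G42690 at -0.50 ± 0.16, AT5G42740 at 0.25 ± 0.08 (edgeR, adjusted p = 0.0292) and BKI1 at -1.03 ± 0.13 (edgeR, adjusted p = 0.000121). AT5G42690 is annotated both as a putative transcription factor and as a protein of unknown function. In RNAi-MARS AT5G42690 changed by -0.29 ± 0.16, AT5G42740 by 0.08 ± 0.08 and BKI1 by -0.31 ± 0.13 (edgeR, adjusted p = 0.0711). The call of AT5G42740 was lost without Col-0 before ABA library A, B or C and without Col-0 after ABA library A or C. That of AT5G42690 was lost without before-ABA library A or B or after-ABA library B or C of Col-0, and that of AT5G42660 without before-ABA library A, B or C or after-ABA library A of RNAi-MARS, in the fit of the compared groups alone and in the unfiltered table. The BKI1 change in RNAi-MARS was called with the replicate block, in limma-voom and without RNAi-MARS after ABA library C. The remaining 17 tested neighbours were called in neither line, although SPP was called lower in RNAi-MARS without after-ABA library C of that line and PAF1 higher in Col-0 without after-ABA library A. AT5G42445 was called lower in RNAi-MARS with the compared groups fitted alone and without Col-0 after ABA library B, and AT5G42450 with the replicate block. AT5G42765 was called lower in Col-0 without RNAi-MARS after ABA library B, and the settings that called ATS are given above.

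A call in a single line does not show that the lines differ, and the difference of the ABA responses was tested itself. It was called for 0 of the 35 neighbours, against 0% of all tested features, with 1 neighbour at an unadjusted p under 0.05 (1076 of all features) and 0 calls by DESeq2 or limma-voom. That neighbour was BKI1, whose response was 0.71 ± 0.18 higher in RNAi-MARS than in Col-0 on the log2 scale, with a 95% interval between 0.31 and 1.12 (edgeR, unadjusted p = 0.00243, adjusted p = 0.946). The difference ran between -0.65 and 0.71 over the 35. Its 95% interval lay within -1 and 1 for 24 of them.

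**Figure D3:**
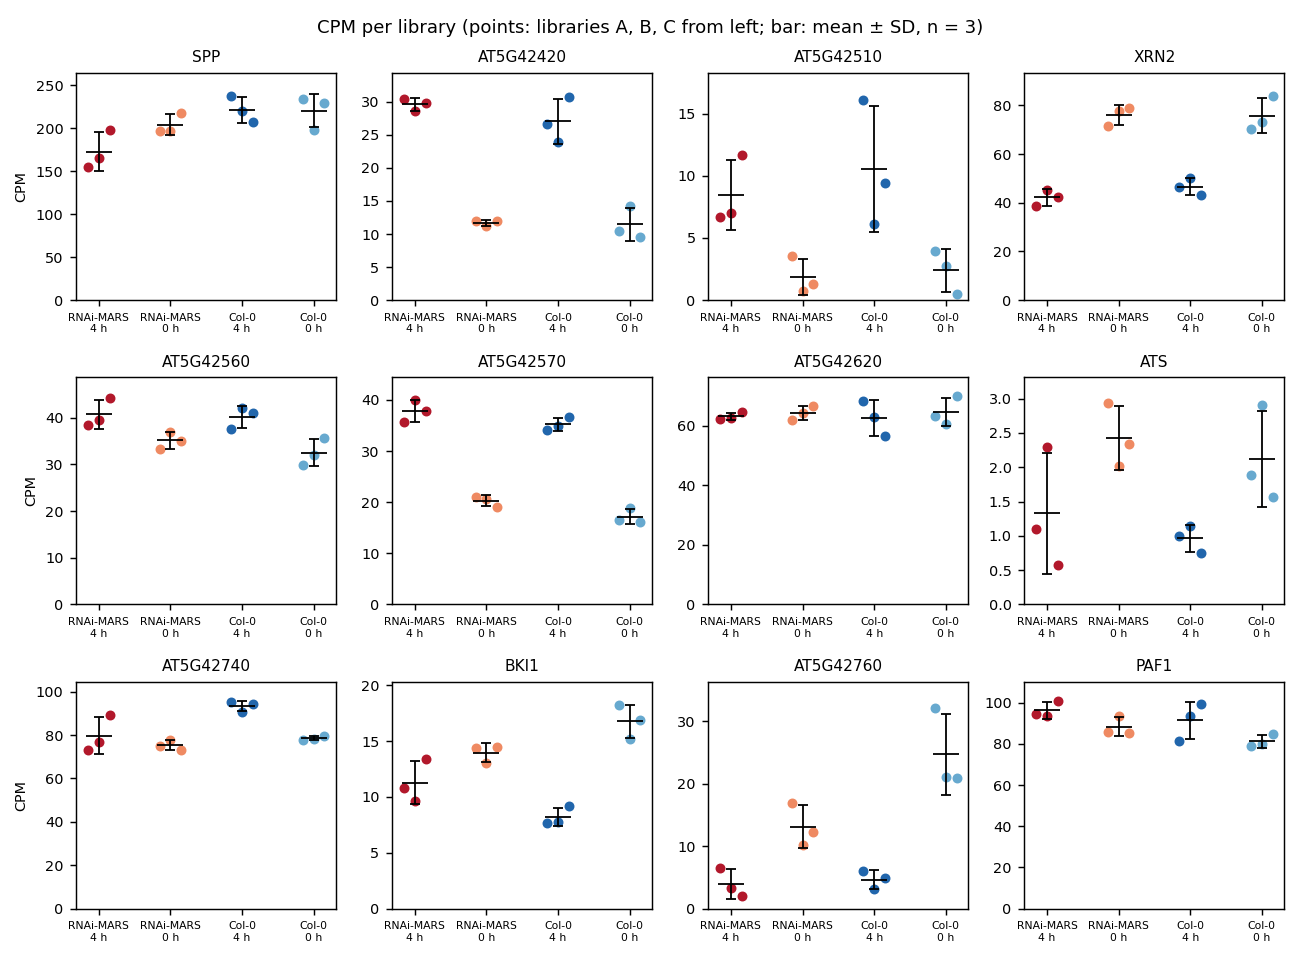
CPM (y axis, from 0) of 12 neighbours in each library, by group from RNAi-MARS at 4 h and 0 h to Col-0 at 4 h and 0 h (x axis); points are libraries A, B and C from left to right, and bars are the mean ± SD of 3 libraries. AT5G42420 and AT5G42570 are higher at 4 h in every library of both lines, XRN2 and AT5G42760 are lower, AT5G42620 is level, and BKI1 separates the times in Col-0 but not in RNAi-MARS.

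The 250 bases before the annotated start are shown for AT5G42510 and AT5G42570, called higher in both lines, and for AT5G42760, called lower in both, since ABA response factors of the bZIP class bind elements with the core ACGTG close to gene starts. The sequences were read from the TAIR10.1 genome on the strand of each gene. Capitals mark matches to the ABA-responsive element core, ACGTG or CACGT on the strand shown, and to the evening element AAATATCT, which clock factors bind.
AT5G42510, chr5:16998926-16999175, minus strand: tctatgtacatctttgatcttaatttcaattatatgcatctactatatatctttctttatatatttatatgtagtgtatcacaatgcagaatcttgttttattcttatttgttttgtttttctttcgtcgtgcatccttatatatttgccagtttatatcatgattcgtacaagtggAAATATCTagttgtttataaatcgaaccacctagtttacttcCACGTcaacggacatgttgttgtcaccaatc
AT5G42570, chr5:17022724-17022973, minus strand: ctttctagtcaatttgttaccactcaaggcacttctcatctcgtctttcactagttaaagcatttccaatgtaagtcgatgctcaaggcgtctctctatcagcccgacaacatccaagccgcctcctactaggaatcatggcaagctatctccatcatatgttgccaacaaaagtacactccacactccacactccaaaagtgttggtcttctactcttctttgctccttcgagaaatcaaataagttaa
AT5G42760, chr5:17148558-17148807, plus strand: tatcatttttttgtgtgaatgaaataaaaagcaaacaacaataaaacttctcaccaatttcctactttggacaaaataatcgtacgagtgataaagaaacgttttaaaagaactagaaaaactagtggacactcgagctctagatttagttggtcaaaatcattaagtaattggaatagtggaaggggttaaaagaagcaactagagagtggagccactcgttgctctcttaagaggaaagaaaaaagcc
AT5G42510 has the core 31 bases and the evening element 73 bases before its start, and the other promoters shown have neither. The promoters of AT5G42420 and BKI1, which are not shown, have neither as well. On either strand the core ACGTG was found in 3 of the 33 tested protein-coding neighbours (9.09%), against 22.9% of the 27443 nuclear protein-coding genes. The 33 had passed the filter on low counts, while the 27443 also hold genes that had not, so the sets are unlike. The G-box CACGTG, which contains the core, was in 0 of 33, against 6.49% of all, and AAATATCT was in 2 of 33, AT5G42510 and AT5G42660, against 4.79% of all. Of the 8 protein-coding neighbours called higher after ABA in either line 1 held the core, and of the 9 called lower 0 did. Of the 16 tested protein-coding neighbours called in neither line, 2 held it (12.5%), the same share as among those called higher. A match is a stretch of letters, and the factor's binding was not measured.

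Several neighbours belong to families whose other members lie elsewhere in the genome. Of 10 tested HVA22 genes, AT5G42560 included, 4 were higher and 2 lower after ABA in RNAi-MARS, and 5 were higher and 0 lower in Col-0, with HVA22D at 1.64 ± 0.15 and 1.49 ± 0.15. The family's median log2 change was 0.24 in RNAi-MARS and 0.38 in Col-0, beside -0.02 and -0.00 over all features. Of 12 alpha subunits of the 20S proteasome, 8 were higher and 0 lower in each line, with medians of 0.30 and 0.32. PAF1 was among the 4 not called in each line, at 0.13 ± 0.09 in RNAi-MARS and 0.17 ± 0.09 in Col-0. Of the 3 exoribonucleases, XRN3 was lower in RNAi-MARS like XRN2, at -0.44 ± 0.11, while its change of -0.23 ± 0.11 in Col-0 was not called. XRN4, which acts in the cytoplasm, was called higher in Col-0 at 0.37 ± 0.09. In RNAi-MARS the change of XRN4 was 0.22 ± 0.09 and was not called (edgeR, adjusted p = 0.0576). Of 7 BASIC PENTACYSTEINE factors, BPC4 was higher with BPC6 in both lines, at 0.42 ± 0.09 in RNAi-MARS and 0.40 ± 0.09 in Col-0, and 5 were not called. Of 11 plastid division genes, 6 were lower and 2 higher in RNAi-MARS and 3 were lower and 3 higher in Col-0. ARC5, the dynamin of the division ring, was lower in both lines, at -0.79 ± 0.11 in RNAi-MARS and -0.66 ± 0.11 in Col-0. Of 7 tested brassinosteroid signalling genes, 1 was higher and 2 lower in each line. None of the genes of these lists was called between the lines or in the difference of responses.

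Tested genes that follow each other along the chromosome were compared in pairs, also where other genes lie between them. The pairs thus include AT5G42570 and AT5G42620, 43473 bp apart across the marneral genes, and ATS and AT5G42655, 26122 bp apart across AOS. Among the 34 pairs of tested neighbours that follow each other, both were called in 5 pairs in RNAi-MARS, of which 2 moved the same way and 3 in opposite ways. In Col-0 both were called in 8 pairs, of which 5 moved the same way and 3 in opposite ways. These are 14.7% and 23.5% of the pairs, beside 19.6% in RNAi-MARS and 17.3% in Col-0 of the 21779 such pairs of tested nuclear genes on all chromosomes. The pairs that moved the same way were 40% and 62.5% of those with both called, beside 57.1% and 57.3% over all chromosomes, and with 5 and 8 pairs no difference was tested. Among them, AT5G42670 and AT5G42680 in both lines and AT5G42560 and AT5G42570 in Col-0 have untested genes between them. AT5G42470 rose and the F-box gene AT5G42460, 953 bp away on the same strand, fell in both lines. BPC6 and AT5G42510, divergent genes 1333 bp apart, both rose in both lines. AT5G42660 lies 27 bp from AT5G42655, and AT5G42730 lies 33 bp from AT5G42720, and in each of these pairs the first-named was called higher in RNAi-MARS while the other was not called.

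AT5G42530 varied most between libraries of a group and was singled out after its values were seen. It stood at 55.3, 114 and 25.8 CPM in RNAi-MARS after ABA and 145, 19.9 and 29.7 CPM before it, and at 113, 30 and 25.9 CPM in Col-0 after ABA and 54.7, 38.1 and 92.0 CPM before it. Every group spanned a range of more than 2-fold, and all groups overlapped. Its SD within groups was 1.13 on the log2 scale, larger than that of 99.7% of the 5421 features within 2-fold of its mean level, whose median was 0.131. Its log2 differences were between -0.12 and 0.21 in the 4 comparisons of groups, each with an SE of 0.84 or 0.85. The SD within groups was 0.815 for AT5G42510, 0.622 for AT5G42500 and 0.504 for AT5G42760.

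The root marker score differed between libraries of a group, and the neighbours were set beside the root marker score after group means were removed. AT5G42500 stood at 1.80, 4.16 and 3.21 CPM in RNAi-MARS after ABA and 4.25, 2.51 and 2.94 CPM before it, and at 5.55, 2.47 and 3.70 CPM in Col-0 after ABA and 6.70, 5.01 and 1.56 CPM before it. Over the 12 libraries, and with 1 group mean removed per group, its log2 level followed the root score at Pearson r = 0.93 (exact permutation within groups, p = 0.00309, adjusted p = 0.0945 over the 35 neighbours) and Spearman rho = 0.95. For AT5G42510 r was 0.82, rho 0.87 and the exact permutation p 0.00772, and for AT5G42655, the third dirigent-like neighbour, r was 0.77, rho 0.80 and the exact permutation p 0.0108. Reads were divided between AT5G42500 and AT5G42510, so the relations of these genes are not independent of each other. AT5G42655 was low, between 0.133 and 0.862 CPM over all libraries. AT5G42785, an uncharacterized protein with 0.416 to 1.49 CPM, had r = 0.78 and rho = 0.82 (exact permutation p = 0.01). None of the 35 relations passed the adjustment, and the adjusted p was 0.0945 for each of these 4 genes. In all, 5 neighbours had an unadjusted p under 0.05, and the last was AT5G42690, which is not dirigent-like. It had r = 0.72 and rho = 0.72 (exact permutation p = 0.0255, adjusted p = 0.178). The relations of other features were not computed, so 5 of 35 has no share of all features beside it. Without the 2 libraries farthest from the median score r was 0.91, 0.89, 0.80 and 0.79 for AT5G42500, AT5G42510, AT5G42655 and AT5G42785.

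**Figure D4:**
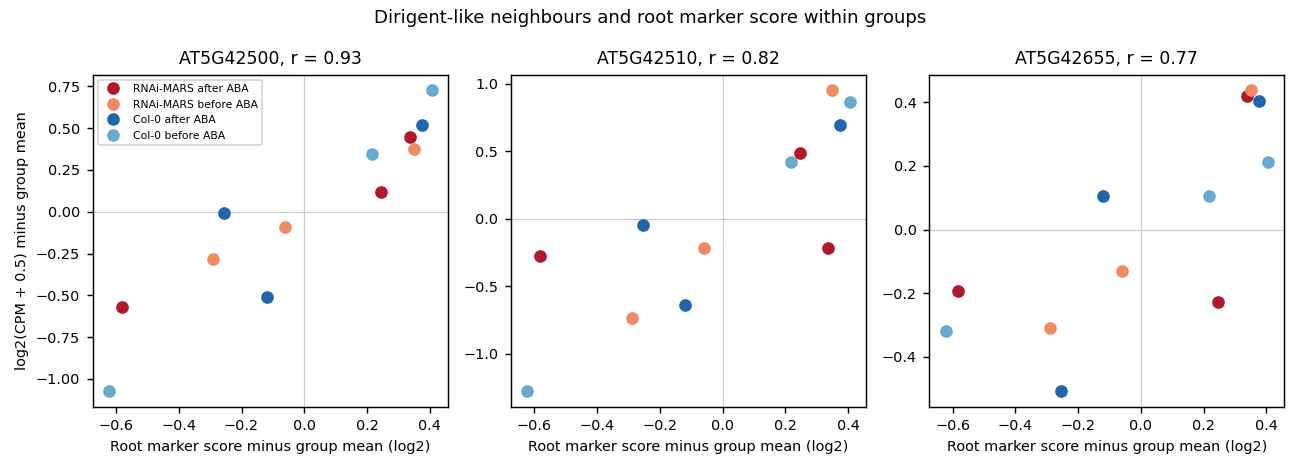
log2(CPM + 0.5) of the 3 dirigent-like neighbours minus the group mean (y axis) against the root marker score minus the group mean (x axis, log2), 1 point per library. Pearson r was 0.93 for AT5G42500, 0.82 for AT5G42510 and 0.77 for AT5G42655, single libraries depart from the trend, and none of these relations passed the adjustment (adjusted p = 0.0945, exact permutation). Reads were divided between AT5G42500 and AT5G42510, so their panels are not independent.

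The same was computed against MRN1, the marneral synthase gene, which ran between 30.5 and 61.8 CPM in RNAi-MARS after ABA and 6.71 and 34.6 CPM before it, and between 2.44 and 31.0 CPM in Col-0 after ABA and 0.719 and 15.8 CPM before it. Within groups AT5G42785, AT5G42500 and AT5G42510 followed it at r = 0.87, 0.86 and 0.85, and AT5G42560 ran against it at r = -0.79. The exact permutation p was 0.0139, 0.00617, 0.0139 and 0.00926 for these genes, the adjusted p was 0.0972 for each, and 0 of the 35 relations passed. Without the 2 libraries farthest from the median of MRN1, r was 0.58, 0.66, 0.69 and -0.69. AT5G42785, AT5G42500 and AT5G42510 also followed the root marker score, at r = 0.78, 0.93 and 0.82. The part of root tissue in their relations with MRN1 was not tested. Those of AT5G42500 and AT5G42510 are not independent of each other, since reads were divided between these genes. AT5G42460 ran against MRN1 too, at r = -0.76 (exact permutation p = 0.0139, adjusted p = 0.0972). Of the 35 neighbours, 9 had an unadjusted p under 0.05 with MRN1. The relations of other features with MRN1 were not computed, so whether 9 of 35 is more than elsewhere in the genome is not known. A positive correlation with MRN1 within groups was seen for 17 of the 35, and a negative or no correlation for 18.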

How the data were processed

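The authors deposited 1 estimated count per feature and library, not normalized. The submitters' processing notes name the build TAIR10 and the tools Trimmomatic 0.36 for trimming, STAR 2.7.2a for alignment and featureCounts (Subread 1.6.5) for counting; their settings for strand and for reads that map to several places are not given in the sources used here. In each library 5.31% to 7.6% of features had a count that was not whole, so reads had been divided between features. The deposited tables hold no coordinates; names and positions come from TAIR10.1, in which all 48 neighbours matched.

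Counts were rounded and tested over all 22465 features that passed filterByExpr (minimum count 10) in R 4.3.3 with the quasi-likelihood test of edgeR 4.0.16 (TMM, robust, all 12 libraries, 1 coefficient per group). Adjusted p-values are Benjamini-Hochberg over all 22465 features, 2-sided, called under 0.05; the SE follows from the log2 change and F. CPM are deposited counts over TMM-scaled library size. Genes are named with values in every library if called with an absolute log2 change of at least 1, if among the 2 tested genes nearest the cluster on each side, or if among the 3 highest in CPM; AT5G42530, AT5G42500, AT5G42765 and XRN2 were added after their values were seen. Alternatives were RLE factors, DESeq2 1.42.0, limma 3.58.1 (voom), other filters, nuclear genes only, the compared groups alone, a replicate block, rounding down and leaving out each library. The members and gene lists were chosen with earlier results of these data known. Correlations used log2(CPM + 0.5) and 1296 exact permutations within groups, 2-sided.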

Additional observations from a re-analysis of the deposited data

How the results depend on the processing

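The number of neighbours called between the lines, and in the difference of responses, was 0 in every alternative, DESeq2 and limma-voom included. The number called for ABA in RNAi-MARS was 14 (40%, against 42.6% of all features). Settings that keep all libraries gave between 11 and 18. The 11 came with no filter on low counts (28.2% of 39 neighbours tested, against 27.7% of all features). The 18 came with the replicate block (51.4%, against 43.1%). Leaving out 1 library gave between 10 (28.6%, against 34.2% or 33.2%) and 15 (42.9%, against 41.6% or 40.4%). In Col-0 the number was 15 (42.9%, against 40% of all features). Settings that keep all libraries gave between 13 (33.3% with no filter, against 25.6%) and 16 (45.7% in DESeq2, against 41.5%). Leaving out 1 library gave between 8 (22.9%, against 33.9%) and 17 (48.6%, against 41.1%). The number was under 10 without Col-0 before ABA library A or B or Col-0 after ABA library B or C. The share of all features was 33.6% to 34% in those settings. With 2 libraries left in a group, the spread was pooled over all groups. With the replicate block, the letters A, B and C as a term, the counts were 18 in RNAi-MARS (8 higher, 10 lower), 15 in Col-0 (7 higher, 8 lower) and 0 in the other comparisons. The 15 in Col-0 were 42.9%, against 40.1% of all features. The letters are not shown to pair the libraries: deviations of libraries with the same letter correlated between -0.299 and 0.403. The genes named by the rule above gave 1148 log2 changes under an alternative, most of them for results not called in the main fit. Of these, 1111 stayed called or stayed not called, 19 lost a call and 14 gained one. Another 4 that were not called changed sign by more than their SE when 1 library was left out (ATS to -0.16 between the lines after ABA and to -0.35 in the difference, AT5G42740 to -0.01 in RNAi-MARS, AT5G42420 to -0.10 in the difference). While called, 0 changed sign. The other called neighbours are not in this total, and the settings that lost their calls are given above. Summing the dirigent pair was chosen after seeing the data. Low depth limits AT5G42445, AT5G42655, AT5G42785 and ATS, and their intervals are wide.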
